A study of Mus musculus with 6 samples.

Results

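Interferon-stimulated genes are the genes that a cell switches on when an interferon binds its receptor. Here 41 of them were chosen by gene symbol, 39 of which had values among the 34714 genes of the deposited table. Mx1 and Mx2, annotated as transcribed pseudogenes in the C57BL/6J reference genome, were not analysed here. The RNA came from kidney tissue of 3 Hspa8 knockout and 3 wild-type mouse samples, all taken at 8 weeks of age under a normal chow diet. Hspa8 encodes HSC70, the constitutive chaperone of the HSP70 family, and the series asks how its loss bears on the kinase PKR and on sterol signalling in kidney tubules. The wild-type titles name C57 and their genotype is labelled WT, and the knockout titles name no strain. Hspa8-floxed and Cdh16-Cre mice are among the animals listed, and the Cdh16 promoter drives Cre in renal tubule epithelium. The sources used here do not say whether the wild-type mice carried the floxed allele or Cre, nor whether samples of one genotype are separate animals. The p-values below therefore cover only the sample-to-sample spread, part or all of which may be technical.

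Type I and type III interferons signal through the kinases JAK1 and TYK2 to a complex containing STAT2 and IRF9, which binds the interferon-stimulated response element (ISRE). Interferon gamma acts through the gamma-activated sequence (GAS) and induces IRF1 and the large GTPases of cell-autonomous immunity. In an uninfected kidney most of these genes are transcribed at a low resting level, in tubule cells as well as in endothelium and resident leukocytes.

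The promoters of many members held the letters of one or both response elements. Windows of 300 bases, from 250 before to 50 after the annotated start site, were taken from RefSeq (GRCm38.p6) for 30 members, some with more than 1 start site (34 windows in all). The ISRE core was searched on both strands as GAAA, any 2 bases and GAAA. The GAS was searched as TTC, any 3 bases and GAA, which is its own reverse complement. The ISRE core was found in 17 of the 30 members (56.7%), against 3.99% of the 27025 genes with a window (3.44% of windows of this length). The GAS was found in 9 members (30%), against 9.55% of genes (8.30% of windows). Both stood in 6 members and neither in 10. The following stretches, on the strand of the gene and 5′ to 3′, are from some of the members that hold a motif, with the matched motifs in capitals.
Isg15 (chr4:156200860-156200911, minus strand): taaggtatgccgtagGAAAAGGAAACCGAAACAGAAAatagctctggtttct
Ifit1 (chr19:34640770-34640828, plus strand): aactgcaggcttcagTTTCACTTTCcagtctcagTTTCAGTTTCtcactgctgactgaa
Ifit3 (chr19:34583358-34583431, plus strand): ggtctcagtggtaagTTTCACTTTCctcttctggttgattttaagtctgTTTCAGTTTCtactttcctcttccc
Ifit3b (chr19:34607754-34607827, plus strand): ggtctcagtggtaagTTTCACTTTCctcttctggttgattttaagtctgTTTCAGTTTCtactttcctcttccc
Oas1a (chr5:120907515-120907560, minus strand): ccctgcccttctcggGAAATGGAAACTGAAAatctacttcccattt
Bst2 (chr8:71537572-71537623, minus strand): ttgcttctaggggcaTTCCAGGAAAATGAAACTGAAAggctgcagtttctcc
Irgm1 (chr11:48871420-48871465, minus strand): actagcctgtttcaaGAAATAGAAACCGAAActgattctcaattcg
Igtp (chr11:58199496-58199546, plus strand): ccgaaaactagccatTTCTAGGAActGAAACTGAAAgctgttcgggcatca
Irgm2 (chr11:58214887-58214937, plus strand): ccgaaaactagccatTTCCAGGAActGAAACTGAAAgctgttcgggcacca
Gbp7 (chr3:142530215-142530307, plus strand): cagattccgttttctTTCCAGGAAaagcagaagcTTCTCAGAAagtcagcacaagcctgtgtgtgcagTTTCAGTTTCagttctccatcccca
Irf1 (chr11:53769909-53769947, plus strand): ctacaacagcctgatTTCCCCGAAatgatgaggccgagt

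In Isg15 the capitals hold 3 overlapping ISRE cores, in Oas1a and Irgm1 they hold 2, and in Ifit1 and Ifit3 the 2 cores stand apart on the opposite strand. The window of Oas1a also held a GAS, at -98 from the start site and outside the stretch shown. The 74 bases shown for Ifit3 and Ifit3b are identical, and those of Igtp and Irgm2 differ at 2 of 51 bases, with the GAS directly upstream of the ISRE core in each. In Bst2 the GAS overlaps the first of 2 ISRE cores, and the capitals run through all 3. The Irf1 window held a GAS and no ISRE core. By role, 6 of the 6 interferon-inducible GTPases with a window held the ISRE core, and 1 of 3 among ISG15 and the ubiquitin or ADP-ribose enzymes. A match is a description of the letters and not a measured binding site.

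**Figure D1:**
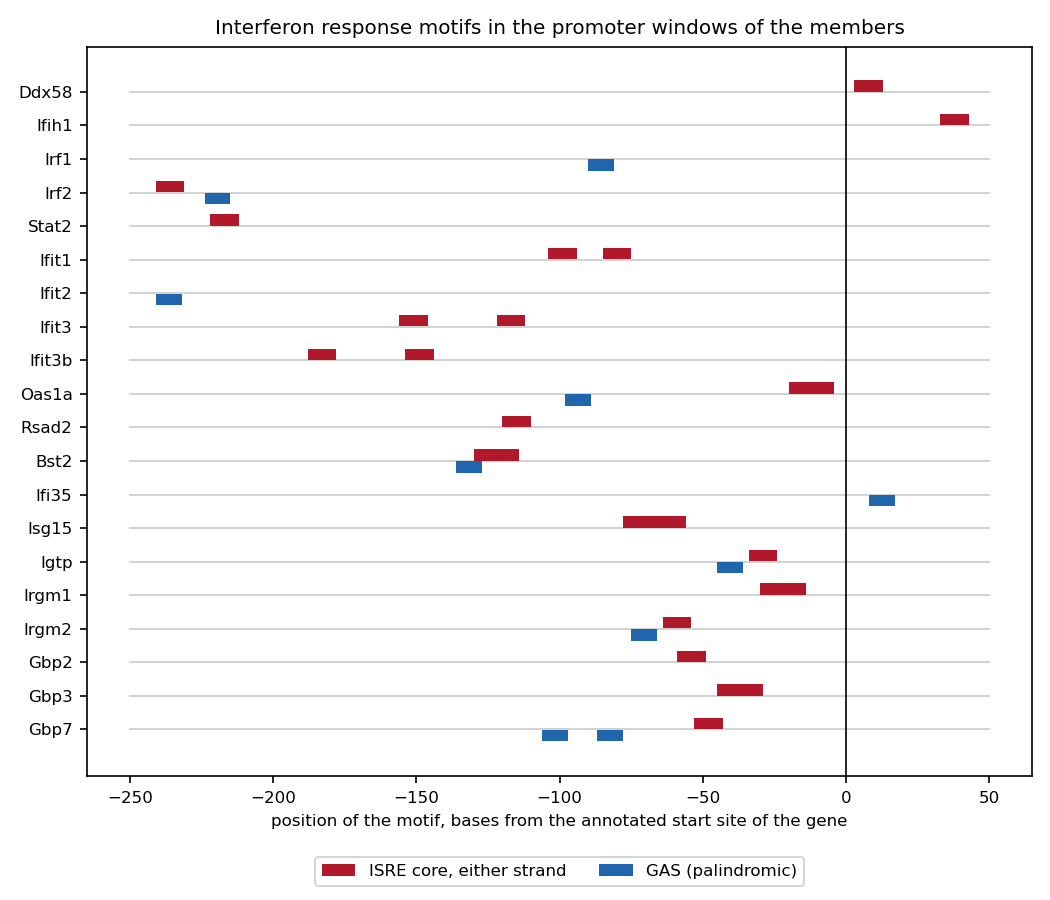
Position of each motif match in the promoter windows of the 20 members that hold one, with bases from the annotated start site on the x axis and 1 row per gene. Red bars are ISRE cores on either strand and blue bars GAS matches. The GTPases at the bottom hold their ISRE cores within 64 bases upstream of the start site.

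Levels are in FPKM, a read density corrected for gene length and library size, so they can be compared between genes. The members were expressed at low levels. Over the 6 libraries, 35 of the 39 had a mean of at least 1 FPKM and were tested, with a median of 4.19 FPKM against 8.61 FPKM for the 12174 tested genes. The highest were Samd9l at 40.6, Irf3 at 27.9, Ifi27 at 24.5, Irgm1 at 18.5 and Trim25 at 12.8 FPKM. Another 12 lay between 5 and 10 FPKM and 18 between 1 and 5 FPKM. Many neighbours in this order differed by less than their spread. Parp14, Rtp4 and Gbp7, for example, had means of 2.35, 2.35 and 2.33 FPKM, closer than the smallest SD of Parp14 within a group (0.252 FPKM). Dhx58, Zbp1, Oas2 and Oasl1 had means under 1 FPKM and were left untested, and Ifit1 and Usp18 passed the minimum through their wild-type means, with knockout means of 0.786 and 0.963 FPKM. Reads could be split between near-identical transcripts for some members. Of the 50-base stretches of its longest transcript, Ifit3 shared 51.2% with Ifit3b, and Oas1a shared 57.6% with Oas1g. Ifi27 lies within the annotated span of Ifi27l2a, Ifit1 and Ifit3b lie within that of Ifit1bl1, and Parp9 and Dtx3l overlap by 558 bases. No source used here says whether the counting used strand.

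The transcript of Hspa8 itself ran from 1058 to 1318 FPKM over the wild-type libraries and from 650 to 781 FPKM over the knockouts, 61.4% of the wild-type mean. Where Cre is driven by Cdh16, cells outside the tubules keep the gene, and their part in the remaining transcript was not tested. Tubule genes such as Slc34a1, Umod and Slc12a3 were abundant in all 6 libraries. In wild-type replicate 3 the heat shock gene Hspa1a had 115 FPKM against 3.15 to 36.6 FPKM in the others. Immediate early genes, which respond to tissue handling, had a mean deviation from their 6-library mean of -1.56 and -1.41 on the log2 scale in replicate 1 of wild-type and knockout, against 0.126 to 1.13 in the other 4 libraries. Knockout replicates 1 and 3 held 147 and 186 FPKM of the globin gene Hba-a1 against 15.7 to 24.4 FPKM elsewhere. In bulk tissue, fewer cells of a type and less RNA per cell cannot be told apart.

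No interferon-stimulated gene passed the test between genotypes, and nearly all had a lower mean in the knockout. Limma's moderated test on log2(FPKM + 1), adjusted by Benjamini-Hochberg over all 12174 genes, called 0 of the 35 tested members and 0 of all genes (0% called). Hspa8, the gene knocked out, was not called either, though its groups did not overlap (log2 fold change -0.70, limma adjusted p = 0.866). A member that was not called is therefore not shown to be unchanged. At an unadjusted p under 0.05, 7 of the 35 were lower (20%) and 0 higher, against 4.21% of all genes lower (513 genes, with 116 higher). A log2 fold change below 0 was found for 33 of 35 (94.3%), against 64.9% of all tested genes. Among all 39 with values and no filter on level it was 36, against 59.5%. The median was -0.21 on the log2 scale, against -0.04 for all tested genes. The 3 knockout values all lay below the 3 wild-type values for 8 members (22.9%), namely Irf2, Irf9, Xaf1, Isg15, Usp18, Parp14, Iigp1 and Gbp2, against 8.57% of all genes, and for 0 members they all lay above, against 2.01%. Usp18 is among the 7, the 33 and the 8, and Ifit1 among the 33, though both passed the minimum only through their wild-type means. Equalising library sums, medians or quantiles moved the share of all genes below 0 to 50.2%, 45.9% and 49.2%. The members below 0 were then 30 of 34, 31 of 35 and 30 of 35, each with a median of -0.16. The members were chosen with earlier results of these data known, so these counts describe the list and are not a test of it.

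Both smaller counts depended on the processing, as did the shares of all genes. With sums, medians or quantiles equalised, knockout values lay all below wild-type for 7 of 34, 6 of 35 and 6 of 35 members. The shares of all genes were 6.34%, 4.97% and 5.51%. Among the 17 members with a mean of at least 5 FPKM the count was 2, against 7.38% of all genes. Members lower at an unadjusted p under 0.05 numbered 4, 3 and 3 under the same scalings, against 3.09%, 2.32% and 2.57% of all genes. Without a filter on level they were 3 (against 3.72%), without knockout replicate 3 they were 3 (against 2.43%), and without wild-type replicate 2 they were 11 (against 3.54%). With the replicate number as a block they were 7, against 2.73%.

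**Figure D2:**
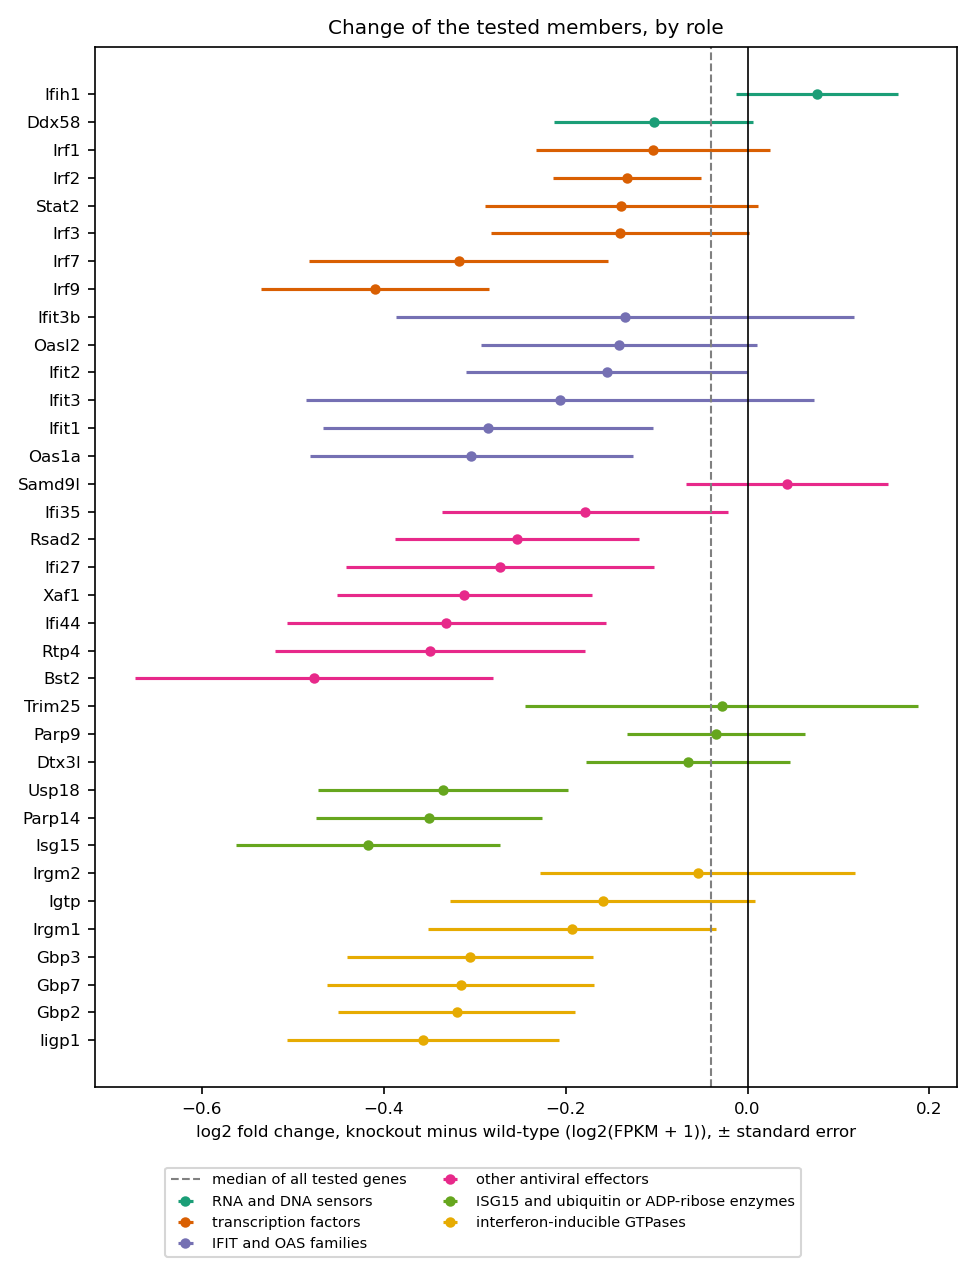
Log2 fold change of the 35 tested members, knockout minus wild-type on log2(FPKM + 1), on the x axis with bars of ± 1 standard error, grouped by role and coloured accordingly. The dashed line is the median of all 12174 tested genes, and 33 points lie left of 0 with Ifih1 and Samd9l to its right.

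The 2 tested nucleic acid sensors differed little between genotypes. Ddx58 encodes RIG-I and Ifih1 encodes MDA5, the cytosolic sensors of viral RNA. Ddx58 gave 4.82, 3.79 and 4.53 FPKM for the wild-type libraries and, for the knockouts, 4.50, 3.87 and 3.65 FPKM, listed as replicates 1, 2 and 3 here and throughout. Ifih1 was present at 2.99, 2.80 and 2.52 FPKM among wild-type and at 3.01, 3.00 and 2.89 FPKM among knockout libraries. The groups overlapped for both, with log2 fold changes of -0.10 (SE 0.109) and 0.08 (SE 0.0888) and a limma adjusted p of 0.998 each. Dhx58, which encodes LGP2, a regulator of both sensors, measured 0.679, 0.819 and 1.37 FPKM across the wild-type libraries against 0.699, 0.738 and 0.660 FPKM across the knockouts. Zbp1, a sensor of Z-form nucleic acid that can trigger necroptosis, gave 0.706, 0.876 and 1.31 FPKM for the wild-type libraries and, for the knockouts, 0.962, 0.837 and 0.776 FPKM. For both of these untested genes wild-type replicate 3 was the highest library.

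Among the transcription factors, all 6 had a log2 fold change below 0 (against 64.9% of all tested genes), and Irf9 showed the smallest p of any member. Irf9, the DNA-binding subunit of the complex that reads the ISRE (chromosome 14, 55603985 to 55610030), was present at 8.502, 7.39 and 10.3 FPKM among wild-type and at 6.40, 6.86 and 5.60 FPKM among knockout libraries. Every knockout library lay below every wild-type library, at 72.1% of the wild-type mean. The log2 fold change was -0.41 (SE 0.125) and the limma adjusted p was 0.908 over all genes (unadjusted 0.0113). With 3 libraries a side the exact two-sided permutation p cannot fall under 0.1, and it was 0.1 here.

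Its partner Stat2 measured 4.97, 4.64 and 6.86 FPKM across the wild-type libraries against 4.97, 5.57 and 4.07 FPKM across the knockouts, and the groups overlapped. Irf7, the amplifier of type I interferon transcription, gave 5.49, 5.01 and 8.22 FPKM for the wild-type libraries and, for the knockouts, 4.95, 5.13 and 4.09 FPKM. Its log2 fold change of -0.32 (SE 0.164, limma adjusted p = 0.973) became -0.13 without wild-type replicate 3. That library held the highest level of both genes. Irf3, which responds first to the sensors, is constitutive, and its 25.8, 27.6 and 34.6 FPKM in wild-type overlapped with 26.4, 30.5 and 22.6 FPKM in knockout kidneys. Irf2, which competes with IRF1 for its sites, was present at 6.55, 7.27 and 7.34 FPKM among wild-type and at 6.38, 6.41 and 6.23 FPKM among knockout libraries. The Irf2 groups did not overlap, with a gap smaller than the wild-type spread and a log2 fold change of -0.13 (SE 0.0813, limma adjusted p = 0.995). Irf1 ranged from 5.65 to 6.88 FPKM over wild-type and from 4.67 to 6.63 FPKM over knockout libraries.

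Among the IFIT and OAS genes the groups overlapped for all 6 tested members, and single libraries stood high. Groups lay apart for few genes in general, 8.57% of all tested genes with lower and 2.01% with higher knockout values. Overlap in all 6 is therefore not particular to this family. IFIT proteins bind viral RNA whose ends lack host marks, and OAS enzymes make the oligoadenylates that activate RNase L. The 4 Ifit members lie side by side on chromosome 19, from 34550550 for Ifit2 to 34650009 for Ifit1. Ifit3 measured 6.12, 7.76 and 11.9 FPKM across the wild-type libraries against 5.65, 11.04 and 5.55 FPKM across the knockouts. Ifit3b gave 2.09, 2.66 and 3.96 FPKM for the wild-type libraries and, for the knockouts, 2.13, 4.04 and 1.68 FPKM. For both, wild-type replicate 3 and knockout replicate 2 were the high libraries, 1 in each group, and the genes share the promoter stretch shown and much of their transcript sequence. Their log2 fold changes were -0.21 (SE 0.280) and -0.13 (SE 0.252), each with a limma adjusted p of 0.998, and both turned above 0 without wild-type replicate 3, at 0.03 and 0.05.

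Ifit1 was present at 0.838, 0.904 and 1.94 FPKM among wild-type and at 0.693, 0.916 and 0.751 FPKM among knockout libraries. Wild-type replicate 3 was 2.31 times the median of the other 5 libraries, the highest such ratio among the members, and without it the gene falls under 1 FPKM and was not tested. Ifit2 measured 2.83, 2.29 and 3.31 FPKM across the wild-type libraries against 2.05, 3.19 and 2.08 FPKM across the knockouts. Oas1a gave 1.46, 1.46 and 2.57 FPKM for the wild-type libraries and, for the knockouts, 1.08, 1.70 and 1.04 FPKM, a log2 fold change of -0.30 (SE 0.178, limma adjusted p = 0.994) that was -0.12 without wild-type replicate 3. Oas2 was present at 0.708, 0.747 and 1.49 FPKM among wild-type and at 0.411, 0.706 and 0.588 FPKM among knockout libraries. Its groups did not overlap, though wild-type replicate 1 and knockout replicate 2 nearly met. Oasl2, an OAS-like protein, ranged from 2.24 to 3.38 FPKM over wild-type and from 1.94 to 3.02 FPKM over knockout libraries. Oasl1, an OAS-like gene known to restrain IRF7 translation, was untested and had the higher mean in the knockout, 0.816 ± 0.167 FPKM against 0.680 ± 0.251 FPKM in wild-type (SD, n = 3).

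Of the other antiviral effectors, 7 of 8 had a log2 fold change below 0 (against 64.9% of all tested genes). Bst2 (chromosome 8, 71534255 to 71537472) encodes tetherin, which holds budding virions at the cell surface. It measured 9.34, 10.6 and 15.1 FPKM across the wild-type libraries against 6.59, 10.3 and 7.28 FPKM across the knockouts. Its log2 fold change of -0.48 (SE 0.197, limma adjusted p = 0.960) was the lowest of the 35 members. The groups overlapped, as knockout replicate 2 lay above wild-type replicate 1, and the value was -0.29 without wild-type replicate 3.

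Xaf1, an interferon-induced antagonist of the apoptosis inhibitor XIAP, gave 2.12, 2.23 and 3.40 FPKM for the wild-type libraries and, for the knockouts, 1.77, 1.98 and 1.81 FPKM. Its groups did not overlap (log2 fold change -0.31, SE 0.140, limma adjusted p = 0.971), and the value was -0.15 without wild-type replicate 3. Rtp4, a chaperone-like protein that restrains interferon responses and binds viral RNA, was present at 2.38, 2.12 and 3.83 FPKM among wild-type and at 1.97, 2.19 and 1.60 FPKM among knockout libraries. Knockout replicate 2 lay above wild-type replicate 2, and its log2 fold change of -0.35 (SE 0.170) was -0.16 without wild-type replicate 3. Ifi44 measured 3.57, 2.71 and 4.56 FPKM across the wild-type libraries against 2.48, 3.38 and 2.11 FPKM across the knockouts, Ifi27 from 21.3 to 35.1 FPKM and from 19.6 to 23.4 FPKM, and Ifi35 from 7.94 to 10.98 FPKM and from 6.96 to 9.81 FPKM. For these 3 the groups overlapped and wild-type replicate 3 was the highest library.

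Rsad2, which encodes viperin, an enzyme that makes a chain-terminating nucleotide, was highest in wild-type replicate 1, with 6.40, 5.66 and 5.73 FPKM across wild-type libraries against 5.97, 4.78 and 3.85 FPKM across the knockouts, and its groups overlapped. Samd9l, a restriction factor of poxviruses and the most abundant member, gave 44.4, 40.2 and 35.4 FPKM for the wild-type libraries and, for the knockouts, 45.5, 38.4 and 39.7 FPKM. Its lowest library was wild-type replicate 3, where most of the other effectors were highest.

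Of ISG15 and the ubiquitin or ADP-ribose enzymes, 3 of 6 had groups that did not overlap (against 8.57% of all genes), and the others had log2 fold changes near 0. Of the 3, Usp18 passed the minimum of 1 FPKM only through its wild-type mean. Isg15 (chromosome 4, 156199424 to 156200818) encodes a ubiquitin-like modifier attached to proteins after interferon. It was present at 2.61, 3.07 and 4.30 FPKM among wild-type and at 2.26, 2.36 and 1.99 FPKM among knockout libraries, with no overlap, and the knockout mean was 66.2% of the wild-type mean. The log2 fold change was -0.42 (SE 0.145, limma adjusted p = 0.941, exact permutation p = 0.1), and -0.26 without wild-type replicate 3. Usp18, the protease that removes ISG15 and dampens the type I receptor, measured 1.35, 1.20 and 1.91 FPKM across the wild-type libraries against 1.04, 0.739 and 1.11 FPKM across the knockouts. Parp14, an ADP-ribosyltransferase, gave 2.38, 2.55 and 3.35 FPKM for the wild-type libraries and, for the knockouts, 2.07, 2.10 and 1.65 FPKM. Neither gene overlapped between groups, with log2 fold changes of -0.33 (SE 0.138, limma adjusted p = 0.960) and -0.35 (SE 0.124, limma adjusted p = 0.941). Without wild-type replicate 3 the value of Usp18 was -0.22.

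Trim25, the ubiquitin ligase that activates RIG-I, was present at 17.8, 11.9 and 9.44 FPKM among wild-type and at 15.1, 10.3 and 12.1 FPKM among knockout libraries. Wild-type held both its highest and its lowest library, and its log2 fold change of -0.03 (SE 0.216) turned to 0.20 without wild-type replicate 1. Trim25 and Parp9 also lay just above 0 when library sums, medians or quantiles were equalised, and Dtx3l with quantiles equalised. Parp9 and Dtx3l, which form one complex, had log2 fold changes of -0.03 (SE 0.0980) and -0.07 (SE 0.112). Parp9 ranged from 5.35 to 6.46 FPKM over wild-type and from 5.34 to 6.24 FPKM over knockout libraries, and Dtx3l from 2.34 to 3.32 FPKM and from 2.54 to 2.75 FPKM.

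The interferon-inducible GTPases attack the vacuoles of intracellular pathogens and are typical targets of interferon gamma. Their log2 fold changes were below 0 for 7 of 7 (against 64.9% of all tested genes), and they were led by another library. Iigp1, an effector of the IRG family, measured 4.50, 2.87 and 2.90 FPKM across the wild-type libraries against 2.53, 2.59 and 2.11 FPKM across the knockouts. Gbp2, a guanylate-binding protein (chromosome 3, 142620663 to 142638008), gave 3.98, 3.18 and 2.78 FPKM for the wild-type libraries and, for the knockouts, 2.57, 2.05 and 2.71 FPKM. Neither overlapped between groups, with log2 fold changes of -0.36 (SE 0.149, limma adjusted p = 0.961) and -0.32 (SE 0.130, limma adjusted p = 0.960). Without wild-type replicate 1 these were -0.19 and -0.21.

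Gbp7 was present at 3.58, 2.07 and 2.499 FPKM among wild-type and at 1.90, 2.10 and 1.84 FPKM among knockout libraries, so that knockout replicate 2 lay just above wild-type replicate 2. Its log2 fold change of -0.32 (SE 0.147) was -0.16 without wild-type replicate 1. Gbp3 measured 2.92, 2.35 and 3.64 FPKM across the wild-type libraries against 2.10, 2.52 and 1.96 FPKM across the knockouts, and was the 1 GTPase highest in wild-type replicate 3. The IRG family regulators, which keep the effector GTPases off host membranes, overlapped more. Irgm1 gave 25.2, 16.8 and 17.7 FPKM for the wild-type libraries and, for the knockouts, 19.6, 15.9 and 15.8 FPKM. Igtp was present at 9.63, 6.13 and 7.31 FPKM among wild-type and at 8.20, 5.85 and 6.18 FPKM among knockout libraries. Irgm2 measured 7.71, 5.46 and 5.04 FPKM across the wild-type libraries against 7.16, 4.67 and 5.55 FPKM across the knockouts. In all 3, replicate 1 was the highest library of either genotype, the 2 libraries in which immediate early genes were low, whose part in these values was not tested. Without wild-type replicate 1 the log2 fold changes of Irgm1 and Igtp shrank from -0.19 and -0.16 to -0.02 and -0.0041, and that of Irgm2 turned from -0.05 to 0.10. Igtp and Irgm2, whose promoter stretches are near-identical, also shared 12.3% and 7.30% of their transcript stretches with another gene, mostly each other.

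**Figure D3:**
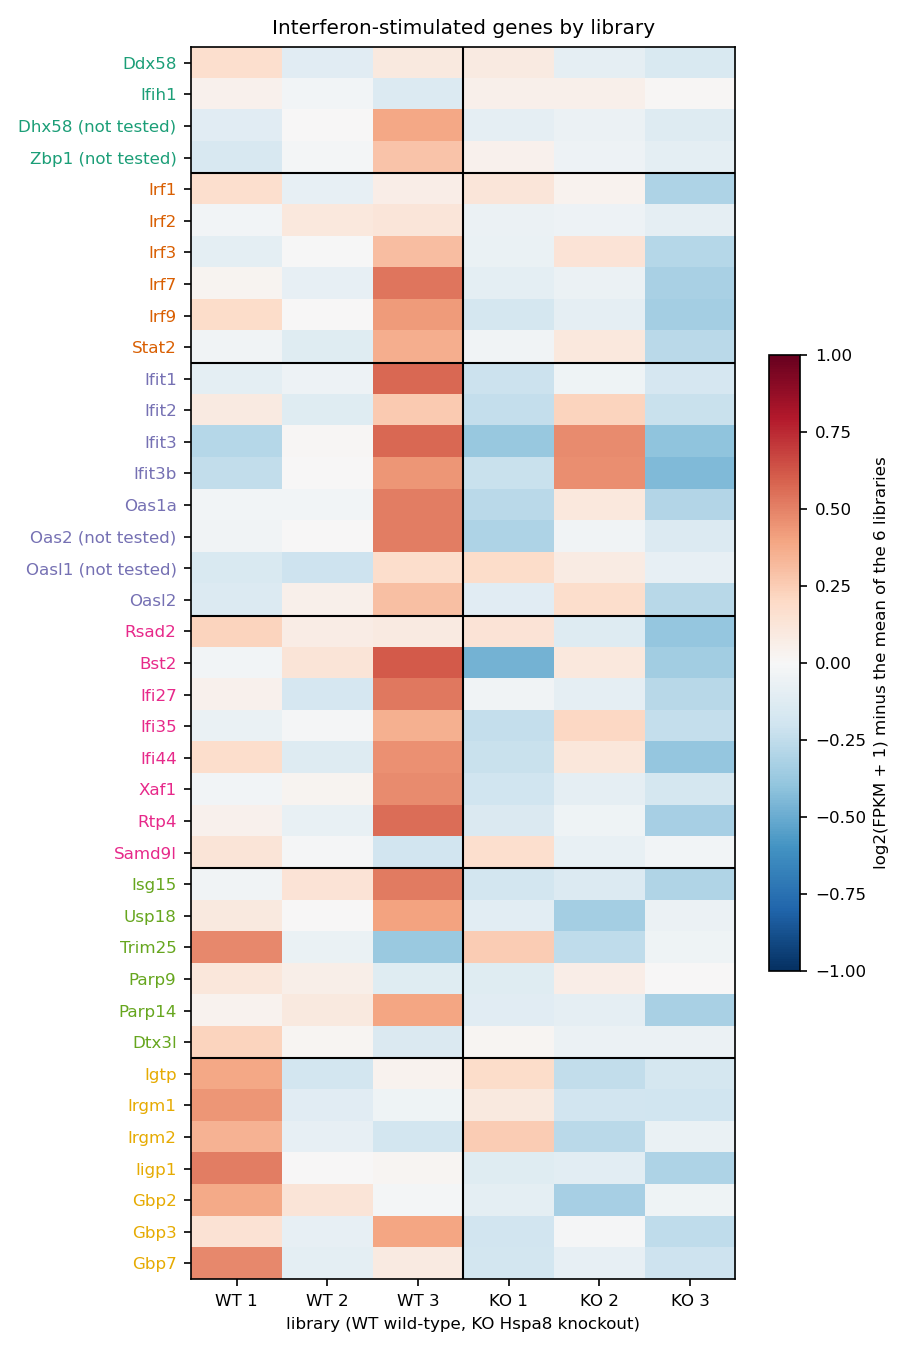
Log2(FPKM + 1) of each of the 39 members minus its mean over the 6 libraries, as colour from blue (lower) to red (higher), with 1 column per library and 1 row per gene grouped by role. Most rows are reddest in wild-type replicate 3 (20 of the 35 tested), while 6 of the 7 GTPases at the bottom are reddest in wild-type replicate 1, and knockout replicate 3 is mostly blue.

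Most members were highest in 1 of 2 wild-type libraries. Wild-type replicate 3 was the highest of the 6 libraries for 20 of the 35 tested members (57.1%, against 30.2% of all tested genes), among them Irf7, Irf9, Stat2, Ifit1, Oas1a, Bst2, Isg15 and Usp18. Wild-type replicate 1 was highest for 12 (34.3%, against 28.2%), namely Ddx58, Irf1, Rsad2, Trim25, Parp9, Dtx3l, Igtp, Irgm1, Irgm2, Iigp1, Gbp2 and Gbp7. Knockout replicate 1 was highest for Ifih1 and Samd9l, and knockout replicate 2 for Ifit3b. The lowest library was knockout replicate 3 for 21 members (60%, against 33.4%). The mean deviation of the IFIT and OAS genes from their 6-library mean was 0.445 on the log2 scale in wild-type replicate 3 and -0.116 in wild-type replicate 1, while that of the GTPases was 0.0413 and 0.385. Over all tested members the mean deviation was 0.109, -0.0224 and 0.237 in wild-type and -0.0839, -0.0176 and -0.222 in knockout replicates 1, 2 and 3, so wild-type replicate 2 and knockout replicate 2 stood at nearly the same level.

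**Figure D4:**
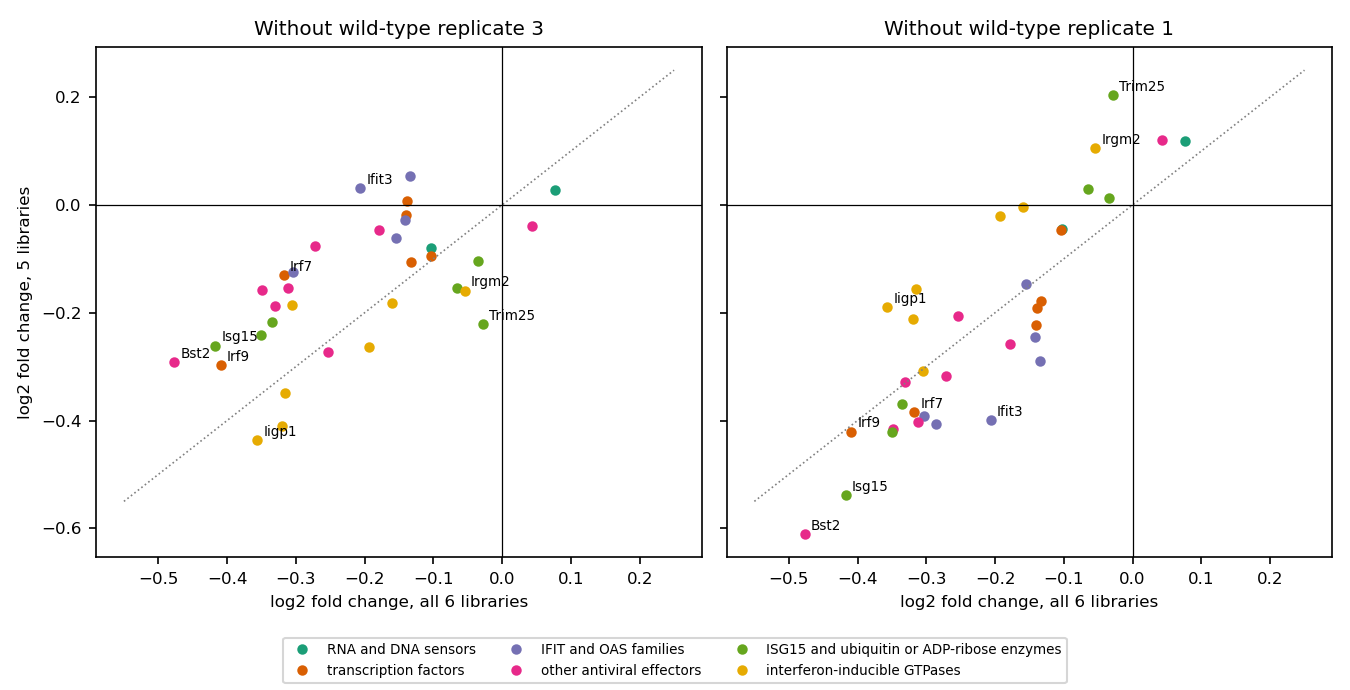
Log2 fold change of each tested member from all 6 libraries (x axis) against the value without wild-type replicate 3 (left, 34 members) or without wild-type replicate 1 (right, 35 members), coloured by role. On the dotted line both are equal: Ifit3 and Oas1a lie above it on the left and below it on the right, and the GTPases Iigp1 and Irgm2 do the reverse.

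The medians by role moved with single libraries of both genotypes. The median log2 fold change of the IFIT and OAS genes, -0.18 with all libraries (6 tested), was -0.03 without wild-type replicate 3 (5 tested) and -0.34 without wild-type replicate 1. It was -0.10, -0.37 and -0.07 without knockout replicates 1, 2 and 3. That of the other antiviral effectors went from -0.29 to -0.16 without wild-type replicate 3. The GTPase median of -0.31 shrank to -0.16 when wild-type replicate 1 was left out. Omitting wild-type replicate 3 gave -0.26, and omitting knockout replicate 2 gave -0.23. Over all members 30 of 34 were below 0 without wild-type replicate 3 (median -0.15, against 66.6% of all genes below 0), and without knockout replicate 3 the median was -0.12. For members that stay above the minimum level, leaving out a library can only keep or raise the number whose groups lie apart. That number was 15 without wild-type replicate 2 (against 14.3% of all genes) and 19 without knockout replicate 2 (against 23.9%).

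Members with an ISRE core in their window had a median log2 fold change of -0.21 (17 tested) and those without it -0.15 (12 tested). For the GAS the order was the other way, with -0.16 for members that held it (9 tested) and -0.20 for those that did not (20 tested). The 2 comparisons share members, as 6 held both motifs, and the differences were not tested. Rtp4, Usp18, Ifi27, Parp9, Parp14 and Iigp1 were tested between genotypes but had no window and are left out here. Their log2 fold changes ran from -0.36 (Iigp1) to -0.03 (Parp9).

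Markers of other cell types that also express these genes had lower means in the knockout too, and most were highest in wild-type replicate 3. Of 12 endothelial markers 12 had a log2 fold change below 0, with a median of -0.36. For this list and those below, the share of all tested genes below 0 was 64.9%. At an unadjusted p under 0.05, 11 of the 12 were lower (against 4.21% of all genes) and 0 higher. Knockout values lay all below wild-type for 8 of them (against 8.57%). Their summed level ran from 162 to 222 FPKM over wild-type and from 122 to 159 FPKM over knockout libraries. Pan-leukocyte markers had 5 of 5 below 0 with a median of -0.23, and sums of 20.0 to 26.1 FPKM in wild-type and 15.9 to 21.5 FPKM in knockout kidneys. Ptprc, which encodes CD45, gave 2.54, 2.19 and 2.43 FPKM for the wild-type libraries and, for the knockouts, 1.88, 1.83 and 1.65 FPKM. For the 11 macrophage and monocyte markers 5 of 6 tested were below 0 with a median of -0.08, and their sums of 58.7 to 79.3 FPKM in wild-type overlapped with 48.6 to 86.5 FPKM in knockout kidneys. Macrophage markers were highest in knockout replicate 2 and then wild-type replicate 3, the libraries in which Ifit3 and Ifit3b were high. None of these lists was highest in wild-type replicate 1, where most GTPases were. Of 6 dendritic cell markers 1 was tested, Zbtb46, whose groups did not overlap (log2 fold change -0.31, limma adjusted p = 0.945), and their sums were 4.58 to 5.59 FPKM in wild-type and 3.13 to 4.54 FPKM in knockout libraries. B cell markers summed to 1.82, 1.97 and 2.06 FPKM across the wild-type libraries against 1.79, 0.981 and 0.733 FPKM across the knockouts. Markers of T and NK cells (1.63 to 3.22 FPKM in sum) and of neutrophils (0.716 to 2.04 FPKM) were also low in every library, with the neutrophil gene Ly6g listed at 0 in all 6. Fibroblast and matrix markers had 6 of 6 below 0. No marker passed the limma test over all genes, and the part that these cells play in the members' values was not tested.

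**Figure D5:**
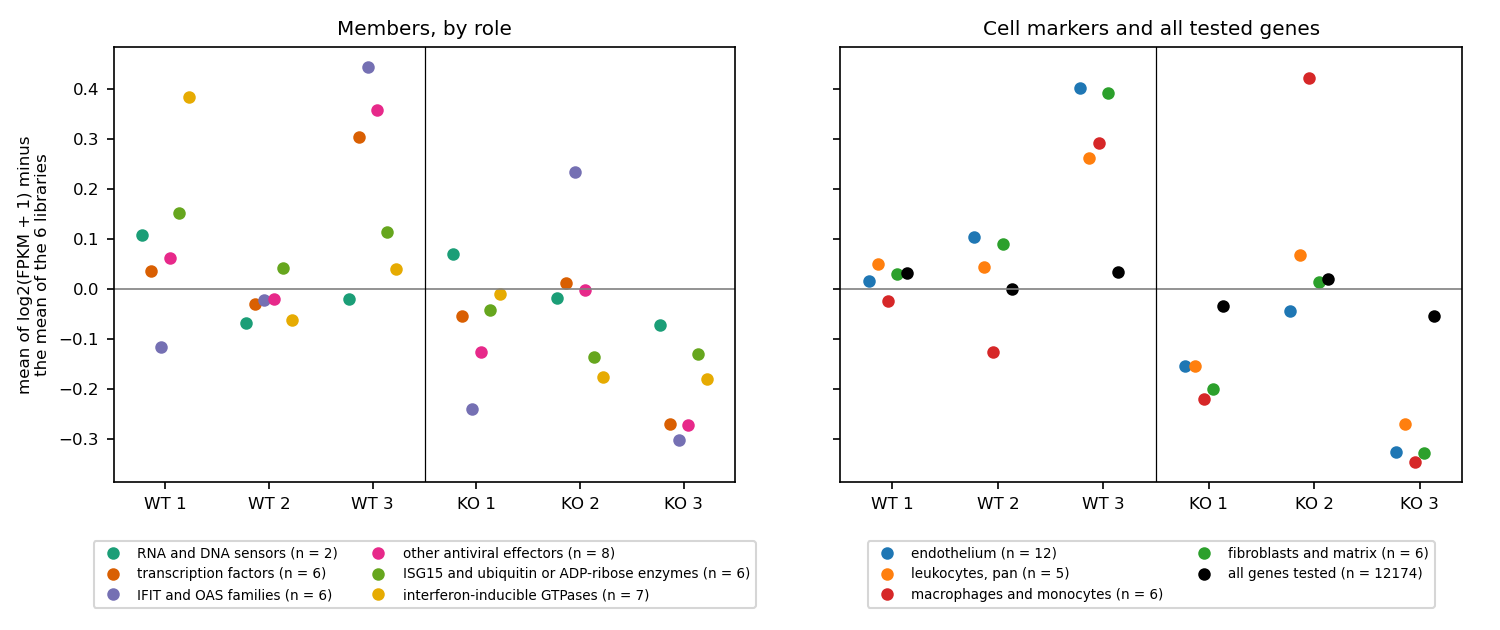
Mean over the genes of a list of log2(FPKM + 1) minus the gene's mean over the 6 libraries (y axis), by library (x axis), for the members by role (left) and for cell markers and all tested genes (right). Each point is 1 list in 1 library. IFIT and OAS genes and the marker lists are high in wild-type replicate 3, macrophage markers are also high in knockout replicate 2, and the GTPases are high in wild-type replicate 1.

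No interferon was detected at an appreciable level. Of 21 interferon genes, from Ifna1 to Ifnb1, Ifng and Ifnl3, 15 were listed at 0 in all 6 libraries, and the sum of all 21 was 0.0612 to 0.142 FPKM per library. Ifnb1 was listed above 0 in knockout replicate 2 alone and Ifng in 1 library of each genotype. No difference between genotypes was detectable at values this low.

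The receptors were expressed, and 0 of 6 passed. Ifnar1, a chain of the type I receptor, was present at 8.78, 8.05 and 8.75 FPKM among wild-type and at 7.64, 6.02 and 6.19 FPKM among knockout libraries. The groups did not overlap, and no single wild-type library stood out (log2 fold change -0.33, SE 0.103, limma adjusted p = 0.914). Ifngr1, the ligand-binding chain for interferon gamma, averaged 18.015 ± 0.811 FPKM over wild-type and 15.8 ± 1.22 FPKM over knockout libraries (SD, n = 3), also without overlap. Ifnar2 and Ifngr2, the partner chains, had log2 fold changes of -0.15 (SE 0.144) and 0.02 (SE 0.0852). Il10rb, shared by the receptors of interleukin 10 and of type III interferon, averaged 19.6 ± 2.27 FPKM over wild-type and 18.4 ± 2.45 FPKM over knockout libraries.

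Of the kinases below the receptors, the groups overlapped for Jak1 and did not for Tyk2. Jak1, a kinase shared by the interferon receptors, averaged 25.1 ± 3.02 FPKM over wild-type and 25.03 ± 3.26 FPKM over knockout libraries. Tyk2, the kinase bound to IFNAR1, averaged 4.98 ± 0.304 FPKM over wild-type and 4.40 ± 0.227 FPKM over knockout libraries. Neither kinase gene passed the limma test. Sensing adaptors and kinases, such as Mavs (log2 fold change -0.05, SE 0.102) and Tbk1 (-0.12, SE 0.0850), had a median of -0.05 with 0 of 11 passing. Among them Irf5 (0.17, SE 0.130) and Ikbke (-0.14, SE 0.122) also did not pass. The negative regulators had 4 of 6 tested below 0, near the 64.9% of all tested genes, and a median of -0.02. The SUMO ligase gene Pias4 was at -0.15 (SE 0.0791) and Samhd1, a nucleotide hydrolase, at -0.09 (SE 0.0797), and 0 passed. Ptpn11, a phosphatase and the most abundant of this list, averaged 17.9 ± 3.06 FPKM over wild-type and 17.9 ± 1.8 FPKM over knockout libraries.

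Interferon-induced genes outside the 41 had 30 of 35 tested below 0 (against 64.9% of all tested genes), a median log2 fold change of -0.25 and 0 called by limma over all genes. At an unadjusted p under 0.05, 10 were lower (against 4.21% of all genes) and 0 higher. Mndal, of the interferon-inducible p200 family of DNA sensors, measured 5.35, 6.86 and 9.42 FPKM across the wild-type libraries against 3.96, 4.32 and 4.25 FPKM across the knockouts. Its knockout mean was 57.9% of the wild-type mean, the log2 fold change was -0.64 (SE 0.165), and the limma adjusted p was 0.866. Slfn2, a Schlafen gene of lymphocyte quiescence, averaged 3.51 ± 0.513 FPKM over wild-type and 2.44 ± 0.203 FPKM over knockout libraries (SD, n = 3) with the same adjusted p. The chemokine Cxcl10 gave 3.90, 4.01 and 3.69 FPKM for the wild-type libraries and, for the knockouts, 2.95, 2.65 and 3.14 FPKM (log2 fold change -0.32, SE 0.0891, limma adjusted p = 0.866). Its groups did not overlap and wild-type replicate 3 was its lowest wild-type library. Ifitm2, the most abundant of this list, averaged 45.6 ± 8.99 FPKM over wild-type and 36.7 ± 5.97 FPKM over knockout libraries. Eif2ak2, which encodes the kinase PKR and is itself induced by interferon, averaged 4.46 ± 0.140 FPKM over wild-type and 4.597 ± 0.231 FPKM over knockout libraries. The groups overlapped, with a log2 fold change of 0.03 (SE 0.0814, limma adjusted p = 0.998).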

How the data were processed

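RNA of 6 mouse kidney samples was sequenced. Expression values were deposited as FPKM in a single table with 1 column per library. Per the labels' protocols, a SMARTer mRNA library kit was used on total RNA. Per the submitters' processing notes, the build is GRCm38 (mm10). Aligner, quantifier and gene annotation: not given in the sources used here. FPKM keep no read totals, so depth is unknown and no counting interval is given. Low values are less precise. Groups and replicate numbers come from the titles, and the table's A8 columns were assigned to the HSPA8KO titles of the same number, as A8 ends HSPA8.

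Limma 3.58.1 in R 4.3.3 was run on log2(FPKM + 1) for genes averaging at least 1 FPKM. The model held the genotype alone and a variance trend on the mean, two-sided, with Benjamini-Hochberg adjustment at 0.05 over all tested genes. This scale understates changes of low genes. Single genes also had an exact two-sided permutation test. The fit was tested on simulated data, in which the added changes were larger than that of any member. Whether changes as small as those of the members would be called was not measured. Members, pathway lists and marker lists were chosen with earlier results of these data known. All members are described, and of each pathway list the 2 tested genes with the smallest p and the gene with the highest mean, with further genes chosen after their values were seen. One gene that this rule would name is not reported here. Alternatives were another pseudocount (0.1), no filter, a mean of at least 5 FPKM, library sums, medians or quantiles equalised, a robust variance model, the replicate number as a block, and leaving out each library. Promoter windows, coordinates and overlaps are from RefSeq GRCm38.p6, and shared stretches from GENCODE transcripts of the same build.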

Additional observations from a re-analysis of the deposited data

How the results depend on the processing

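None of the 35 tested members passed in any of the 14 alternatives, and their lowest limma adjusted p was 0.667. Over all genes limma called 0, except without knockout replicate 2, where it called 5 (0 to 5 over the libraries left out in turn). The count of members below 0 was 29 to 33 with 1 library left out and 16 of 17 with a mean of at least 5 FPKM, and their median log2 fold change -0.30 to -0.12. Members with all knockout values below all wild-type values numbered 8 to 19 with 1 library left out. Leaving out a library cannot lower this count unless a member falls under the 1 FPKM minimum. The 19, without knockout replicate 2, stood against 23.9% of all genes, and the 8 without knockout replicate 3 against 1431 of 12210 genes. Such members numbered 7, 6 and 6 with library sums, medians or quantiles equalised (against 6.34%, 4.97% and 5.51% of all genes). With a mean of at least 5 FPKM they were 2 of 17 (against 7.38%). Knockout values lay all above wild-type for 1 member with medians equalised (605 of 12174 genes) and for 1 with quantiles equalised (530 of 12174 genes). The same held for 1 member without wild-type replicate 1 (820 of 12170 genes) and for 1 without knockout replicate 3 (650 of 12210 genes). Members lower at an unadjusted p under 0.05 numbered 3 to 11 over the alternatives other than the 5 FPKM minimum, where they were 2 (against 263 of 8119 genes). The 11, without wild-type replicate 2, stood against 3.54% of all genes, and the 3 with medians equalised against 2.32%.

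Of the 35 log2 fold changes 26 kept their sign in every alternative that gave them a value. Ifit1 had none with sums equalised or without wild-type replicate 3, and 18 members had none at the 5 FPKM minimum. Leaving out 1 library, Irf1 ran from -0.19 to 0.025, Stat2 from -0.23 to 0.0075, Ifit3 from -0.50 to 0.031, Ifit3b from -0.40 to 0.054, Samd9l from -0.040 to 0.12, Trim25 from -0.22 to 0.20, Parp9 from -0.10 to 0.019, Dtx3l from -0.15 to 0.030 and Irgm2 from -0.19 to 0.10. With sums, medians and quantiles equalised Trim25 was 0.013, 0.022 and 0.017 and Parp9 0.0036, 0.016 and 0.018, and with quantiles Dtx3l was 0.00077. The cause was not tested.

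The replicate numbers did not pair the samples throughout. Same-numbered libraries correlated in their deviations from the group mean at 0.307, -0.215 and -0.321 across genes for replicates 1, 2 and 3. For replicate 1 of either genotype no other pairing was higher, and wild-type replicate 3 with knockout replicate 2 gave the highest value, 0.550. With the replicate block limma called 0 members and 0 genes, 7 members were lower at an unadjusted p under 0.05 (against 2.73% of all genes), and the median stayed at -0.21. The 3 knockout and 3 wild-type libraries cannot give an exact p under 0.1. Depth is unknown, and what change could be detected near 1 FPKM was not measured.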
